A study of Homo sapiens with 12 samples.

Results

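The cytosolic ribosomal proteins are the protein parts of the ribosome that translates nuclear-encoded messenger RNA. Their genes were chosen by symbol: a single annotated symbol of the RPL, RPLP or RPS form, or RPSA, without S6 kinases and pseudogenes. This gave 59 genes of 19775 with a single-symbol probe set on the array, and each gene was read from the brightest of its probe sets by mean over all arrays. A mean at or above log2 3.78, the median of the probe sets, was required for testing. It left 58 of the 59 genes, 37 of the large and 21 of the small subunit, and 11774 genes in all. RPL3L, a paralogue of RPL3 known from heart and skeletal muscle, had a mean of 0.90 and was not tested.

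RNA came from SH-SY5Y cells, an established line grown from a human neuroblastoma, a tumour of immature sympathetic nerve cells, and cultured in D-MEM/F-12. It was read on 12 Affymetrix arrays in 4 groups of 3: oligomeric amyloid-β (Aβ, the peptide of Alzheimer plaques) with 6 h of incubation, its control of 6 h, fibrillar Aβ with 24 h of incubation, and its control of 24 h. Peptide form and hours changed together, so their effects cannot be told apart, and the labels do not state whether the hours refer to the peptide or to the cells, nor what the controls received. All groups share the 1 cell line, and no label says that replicates were separate cultures, so each p-value reflects the spread among these arrays alone, which may be technical.

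A ribosome joins a small subunit, which reads the message, to a large subunit, which forms the peptide bonds, and most of their proteins are needed in equal numbers. Messages of ribosomal proteins are among the most abundant of a growing cell. Many begin with a 5′ terminal oligopyrimidine (TOP) tract, a cytosine followed by a run of pyrimidines. Through it the mTORC1 kinase and the RNA-binding protein LARP1 control their translation, a step that array signals of total RNA do not measure.

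The starts of the genes were examined for the TOP tract in RefSeq start windows of build GRCh38.p14. Of the 59 genes, 51 had an entry, and 35 of them (68.6%) had at least 1 start that opened with C and then at least 4 bases of C or T, read on the strand of the gene. Among all 27305 genes of the table the share was 5.14%. Of the 5 "like" paralogues with an entry, only RPL22L1 had such a start. The 6 windows below are those of the genes that the results turn on: the gene that was higher and the gene that was lower in 24 h controls, the parent RPL22 of RPL22L1, the gene with the brightest probe set, and a pair of paralogues without the tract. Each holds 35 bases before the start and 15 from it, and capitals mark the unbroken run of C and T that opens the transcript.
RPL34: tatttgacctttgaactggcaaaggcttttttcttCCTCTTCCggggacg
RPL22L1: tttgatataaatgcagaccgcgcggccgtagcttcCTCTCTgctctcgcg
RPL22: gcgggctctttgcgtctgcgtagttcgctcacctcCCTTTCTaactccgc
RPL37A: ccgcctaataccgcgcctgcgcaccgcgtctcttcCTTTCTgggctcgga
RPL10L: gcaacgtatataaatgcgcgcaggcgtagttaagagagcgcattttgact
RPS27L: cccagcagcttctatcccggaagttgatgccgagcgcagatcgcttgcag
The windows lie at chr4:108620541-108620590 (plus strand) for RPL34, chr3:170870181-170870230 (minus strand) for RPL22L1 and chr1:6199581-6199630 (minus strand) for RPL22. Those of RPL37A, RPL10L and RPS27L lie at chr2:216498809-216498858 (plus strand), chr14:46651767-46651816 (minus strand) and chr15:63157463-63157512 (minus strand). The run had 8 bases in RPL34, 6 in RPL22L1 and RPL37A, and 7 in RPL22. RPL34 has 2 starts in the table, of which 1 is shown.

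The 250 bases before each start were searched for further motifs. The core ETS factor site, CCGGAAG or its complement CTTCCGG, stood in 35.3% of the 51 ribosomal protein genes and in 10.2% of all genes. A GC box, GGGCGG or CCGCCC, stood in 56.9% of them and in 46.2% of all genes. The letters TATAAA on the strand of the gene stood in 5.88% of them and in 8.38% of all genes. These are matches of letters, and binding was not measured.

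The labelled line was checked against its markers. Of the noradrenergic neuroblastoma markers 6 lay above the filter, with GATA3 at 12.1 and PHOX2A at 10.7. TH, the rate-limiting enzyme of catecholamine synthesis, had a mean of 0.73 and did not. Above the filter lay also 2 of 5 epithelial, 1 of 4 blood and 1 of 3 endothelial markers, none with a mean above 4.89, and 0 of 4 glial markers. The median log2 signal per array ran from 3.89 to 4.12. The number of arrays limits the precision. Each array was scaled to 1 common level, so fewer cells and less RNA per cell cannot be told apart, nor can a change shared by all messages be seen.

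Signals of the ribosomal protein genes lay near the top of the scale. Of the 58 genes, 48 had a mean at or above 12, as had 1.46% of all genes tested. The highest means were those of RPL37A (14.00), RPS23 (13.91) and RPS16 (13.90), although probe sets differ in how well they bind, so that no order of the messages is read from them. The lowest of the tested genes were RPL36A (4.27), RPLP2 (4.66) and RPL10L (5.28). Replicates lay close together, by the SD over the 12 arrays of a gene's residuals from its group means. Its median was 0.088 for the 48 bright genes, 0.11 for the other 10 and 0.14 for all genes tested. This SD is smaller than the SD within a group, since the group means come from the same arrays.

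For some genes the rule settled on a poor reading. RPLP2, an acidic protein of the stalk that recruits elongation factors, was read at 4.66, while a probe set annotated with SNORA52 and RPLP2 averaged 13.6. For RPL36A, a large subunit protein read at 4.27, a probe set annotated with RPL36A-HNRNPH2 and RPL36A averaged 13.2. RPL27A, also of the large subunit, was read at 7.14, while a probe set annotated with SNORA3A and RPL27A averaged 13.8. RPLP2, RPL10L and RPL36A were also the tested genes with the largest SD over the 12 arrays, 1.14, 0.67 and 0.50. Further ribosomal proteins had no single-symbol probe set and are not among the 59, among them RPL26, RPL10, RPLP0, RPSA, RPS27A and RPL5, and others, such as RPL4, RPL13A and RPS2, that were listed only beside other symbols.

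The ribosomal protein genes moved together from array to array. Each gene's signal was set against its own mean over the 12 arrays. On oligomeric replicate 3, 54 of the 58 genes lay above their own mean, against 6 on oligomeric replicate 1 and 9 on oligomeric replicate 2. In the 6 h controls 12, 19 and 19 genes lay above their mean. In the fibrillar group the counts were 47, 20 and 27, and in the 24 h controls 12, 29 and 54. The single arrays that stood high, oligomeric replicate 3, fibrillar replicate 1 and control 24 h replicate 3, were thus spread over 3 groups in the values as deposited.

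The mean deviation of the 58 genes was −0.059, −0.106 and 0.123 on the oligomeric arrays, against −0.061, −0.101 and −0.045 in the 6 h controls. It was 0.114, 0.010 and 0.014 on the fibrillar arrays, against −0.042, 0.0091 and 0.146 in the 24 h controls. Both treated groups therefore overlapped their controls. Over pairs of the 58 genes the correlation of the residuals from the group means, on the same 12 arrays, averaged 0.588, and 0.777 among the 48 bright genes, against 0.0042 over pairs of all genes tested. It is given as a description, since the pairs share arrays and scaling.

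Other measures of the arrays followed this pattern in part. The highest signal of any probe set was 14.66 on oligomeric replicate 3 and 14.63 on control 24 h replicate 3, against 14.24 to 14.50 on the other 10 arrays. The 3′ less 5′ difference of GAPDH, a sign of RNA quality and labelling, was 0.80 on oligomeric replicate 3 against 0.66 and 0.71 on the other oligomeric arrays, 0.81 on fibrillar replicate 1 against 0.49 and 0.64 on the other fibrillar arrays, and 0.51 on control 24 h replicate 3 against 0.47 and 0.52 on the other 24 h controls. In the 6 h controls, where few genes stood above their mean, it was 0.77 to 0.83. After quantile normalization, which gives every array the same distribution of signals, the mean correlation was 0.133, and 33 of 58 genes lay above their mean on oligomeric replicate 3. After cyclic loess it was 0.450 with 54 of 58 genes, and with each array centred on its median 0.650 with 53 of 58. Over pairs of all genes tested the mean correlation was 0.0038 after quantile normalization and 0.0036 after cyclic loess. With median centring it was 0.127, and the 0.650 stands against that value. Which arrays stood high also depended on the scaling: on control 6 h replicate 1 the count was 12 as deposited, 40 after quantile normalization and 47 with median centring. The part of these measures in the pattern was not tested.

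**Figure D1:**
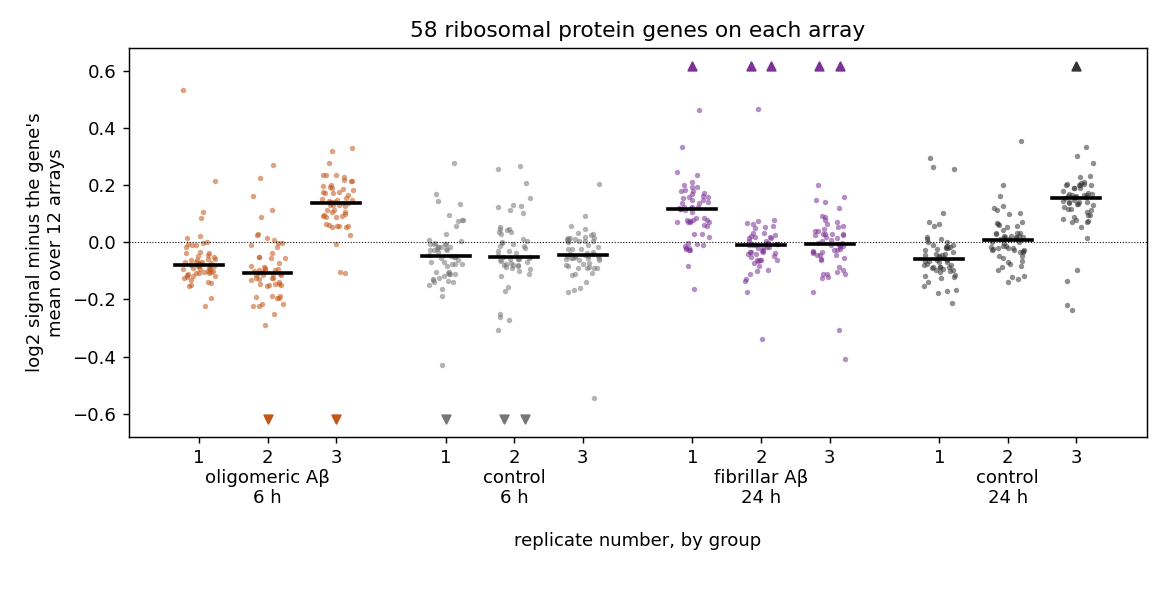
Log2 signal of each of the 58 tested ribosomal protein genes less its own mean over the 12 arrays, by array, with 1 point per gene and a bar at the median of the array. Triangles stand for genes beyond the range drawn, and the genes of oligomeric replicate 3, fibrillar replicate 1 and control 24 h replicate 3 lie mostly above 0, with 54, 47 and 54 of 58 above their own mean.

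The first comparison asked what oligomeric Aβ does to these messages. With oligomers 0 of the 58 ribosomal protein genes passed an adjusted p of 0.05 (limma, Benjamini-Hochberg over 11774 genes), where 0% of all genes were called. At an unadjusted p below 0.05 stood 2 genes, RPL36A and RPLP2, or 3.45% against 2.78% of all genes. The median change was 0.03 on the log2 scale, against −0.0046 over all genes, and 44 of the 58 changes were positive. For 54 of the 58 genes the 95% interval of the change lay within 1.25-fold in either direction, as it did for 4771 of the 11774 genes. Without oligomeric replicate 3 the median was −0.05 with 9 changes positive, and without oligomeric replicate 1 or 2 it was 0.06 and 0.07. It was −0.0069 after quantile normalization with 25 changes positive, 0.02 after cyclic loess with 40 and −0.03 with median centring with 8, against medians over all genes of −0.0057, −0.0053 and −0.07. The sign of the shift thus depends on 1 array and on the scaling.

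RPL36A had log2 signals of 4.49, 4.54 and 4.30 with oligomers, against 3.14, 3.97 and 3.73 in the 6 h controls. All 3 oligomeric arrays lay above all 3 controls, and it was the only one of the 58 genes whose groups did not overlap, while those of 7.36% of all genes did not, 3.6% higher with oligomers. Its change was 0.83 (SE 0.32, adjusted p = 0.999987, limma). The bright probe set annotated with RPL36A-HNRNPH2 and RPL36A changed by 0.0073.

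RPLP2 had 5.20, 4.58 and 4.99 with oligomers, against 4.81, 1.16 and 4.62 in the 6 h controls. Control replicate 2 alone was low, and the groups overlapped. The change of 1.39 (SE 0.65) became 0.21 without that array, and the probe set annotated with SNORA52 and RPLP2 changed by 0.01. RPLP1, the stalk partner of RPLP2 and bright at 13.6, differed by 0.03 (SE 0.08).

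The other genes named by rank with oligomers differed little. RPL31, a protein near the exit of the peptide tunnel, had 13.34 ± 0.10 with oligomers and 13.26 ± 0.06 in the controls (SD, n = 3 each). RPS19, the gene most often mutated in Diamond-Blackfan anaemia, had 13.32 ± 0.21 with oligomers and 13.42 ± 0.14 in the controls. The paralogues RPL26L1 and RPL22L1 differed by −0.05 (SE 0.06) and −0.07 (SE 0.09). None of these passed, and their groups overlapped. RPS6, the protein that S6 kinases phosphorylate, differed by 0.0028 (SE 0.09), and RPL11, which with RPL5 and 5S RNA binds MDM2, by 0.04 (SE 0.08).

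The next comparison asked the same of fibrillar Aβ. With fibrils 0 of the 58 genes passed (limma), where 1.19% of all genes were called, and 0 of 58 had an unadjusted p below 0.05, against 14.2% of all genes. The median change was −0.0061, against −0.00053 over all genes, with 27 of the 58 changes positive, and 54 of the 58 intervals lay within 1.25-fold, as did 3603 of the 11774 over all genes. The changes ran from −0.19 to 0.58. The median was −0.04 without fibrillar replicate 1 and 0.06 without control 24 h replicate 3, and over all single arrays left out it ran from −0.05 to 0.06. It was −0.03 after quantile normalization with 19 changes positive, −0.08 after cyclic loess with 6 and 0.07 with median centring with 54, against medians over all genes of 0.01, 0.01 and 0.07.

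RPL10L, an intronless paralogue of RPL10 known from testis, had the largest change. It read 5.97, 6.23 and 6.09 with fibrils, against 5.55, 5.64 and 5.36 in the 24 h controls. All 3 fibrillar arrays lay above all 3 controls, and it was the only one of the 58 genes whose groups did not overlap, while those of 19.7% of all genes did not, 10.9% higher and 8.73% lower with fibrils. The change was 0.58 (SE 0.28, adjusted p = 0.358, limma). In the 6 h arrays it read 5.23, 4.14 and 4.63 with oligomers, against 4.85, 4.40 and 5.31 in the controls, with overlap.

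RPS15, a small subunit protein near the decoding site, had the most negative change. It read 12.86, 12.69 and 12.56 with fibrils, against 12.87, 12.79 and 13.00 in the 24 h controls. Fibrillar replicates 2 and 3 lay below every control, and replicate 1 overlapped them. The change was −0.19 (SE 0.09, adjusted p = 0.363, limma). RPL7L1, a paralogue of RPL7, differed by −0.13 (SE 0.08, adjusted p = 0.488), RPL35 by 0.12 (SE 0.08, adjusted p = 0.522), RPL36A by 0.40 (SE 0.32, adjusted p = 0.644) and RPS28 by −0.08 (SE 0.08, adjusted p = 0.732). The groups of these 4 genes overlapped.

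**Figure D2:**
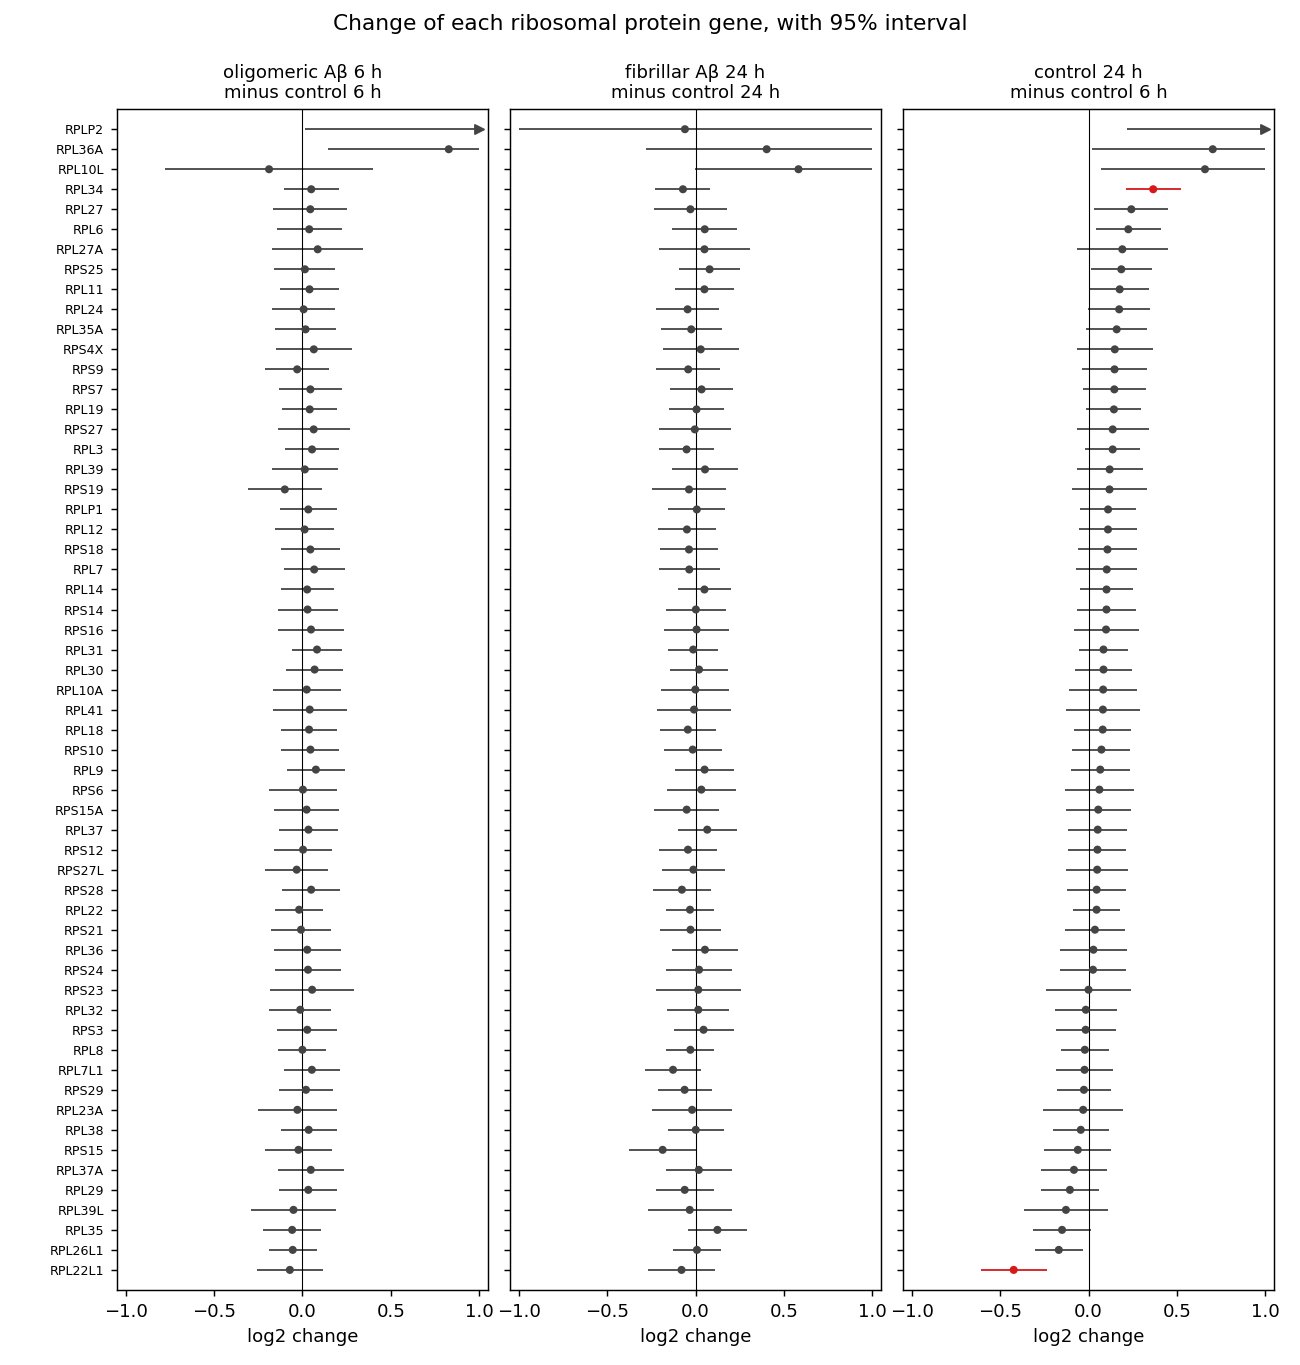
Log2 change of each of the 58 genes in 3 comparisons, with the 95% interval of the limma fit, in the order of the change between the controls. Intervals are drawn only from −1 to 1, an arrowhead marks a change above 1, and red marks an adjusted p under 0.05, which no gene has with oligomers or fibrils and RPL34 and RPL22L1 have between the controls.

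Whether both preparations differed in their effect was tested by the difference of the responses. It was called for 0 of the 58 genes, where 0.0425% of all genes were called, 0.00849% with the fibril response higher and 0.034% with it lower, and 0 of 58 had an unadjusted p below 0.05, against 8.53% of all genes (limma). The largest differences were those of RPLP2, −1.45 (SE 0.92), and RPL10L, 0.77 (SE 0.39, adjusted p = 0.618). That of RPLP2 was −0.27 without control 6 h replicate 2. RPL36A came next with −0.43 (SE 0.46). The other genes named by rank of p were RPL35 with 0.18 (SE 0.11), RPL7L1 with −0.18 (SE 0.11), RPS15 with −0.16 (SE 0.13) and RPL26L1 with 0.06 (SE 0.09). The median over the 58 genes was −0.03, against 0.0095 over all genes.

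Between the controls, 24 h against 6 h, 2 of the 58 genes passed, where 11.7% of all genes were called, 3.76% higher and 7.92% lower (limma). RPL34 was higher and RPL22L1 lower at 24 h. At an unadjusted p below 0.05 stood 10 of 58 genes, 17.2% against 26.6% of all genes. The groups did not overlap for 14 genes that were higher at 24 h, where 13.7% of all genes were, and for 2 that were lower, where 18.9% were. Together these are 27.6% of the 58 against 32.6% of all genes. The hours are confounded with anything else that set these controls apart, since the labels do not say how they differed.

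RPL34, a large subunit protein, read 13.00, 13.06 and 13.20 in the 24 h controls, against 12.79, 12.64 and 12.74 in the 6 h controls. Every 24 h control lay above every 6 h control. The change was 0.37 (SE 0.07, adjusted p = 0.00436, limma). The treated arrays stood with the controls of their own time, with 12.75, 12.78 and 12.79 for oligomers and 13.15, 12.98 and 12.93 for fibrils. RPL34 was called in all 12 fits that left out 1 array, with changes of 0.31 to 0.41. Fits without a treated array keep the control means, here and for RPL22L1 below, and alter only the estimate of the spread. With each array centred on its median the change of RPL34 was 0.24 (adjusted p = 0.0798, limma).

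RPL22L1, the paralogue of RPL22, read 9.57, 9.62 and 9.53 in the 24 h controls, against 10.03, 10.02 and 9.95 in the 6 h controls. Every 24 h control lay below every 6 h control. The change was −0.42 (SE 0.09, adjusted p = 0.0057, limma), and it was called in all 12 fits that left out 1 array, with changes of −0.45 to −0.40. With fibrils it read 9.74, 9.41 and 9.34, and with oligomers 9.83, 9.97 and 9.98, in each case overlapping the controls of that time. RPL22 itself, by its brightest probe set, read 12.65, 12.75 and 12.80 in the 24 h controls, against 12.68, 12.69 and 12.70 in the 6 h controls, a change of 0.05 with overlap. Its other probe sets changed by −0.03, 0.05, 0.24 and 0.28, and none passed. The one with 0.28 read 10.87, 10.81 and 10.98 at 24 h, against 10.69, 10.45 and 10.69 at 6 h, without overlap (adjusted p = 0.0636, limma over all probe sets). With the brightest probe set of each, the difference of RPL22L1 less RPL22 on the same array changed by −0.47.

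The other genes named by rank between the controls did not pass. RPL6 differed by 0.22 (SE 0.09, adjusted p = 0.107), RPL27 by 0.24 (SE 0.10, adjusted p = 0.128), RPL26L1 by −0.17 (SE 0.06, adjusted p = 0.102) and RPL35 by −0.15 (SE 0.08, adjusted p = 0.236). RPL6 and RPL27 passed after quantile normalization, with adjusted p-values of 0.0216 and 0.0158, and after cyclic loess, and RPL27 also passed without control 24 h replicate 1. RPL26L1, the paralogue of RPL26, read 9.69, 9.70 and 9.66 in the 24 h controls, against 9.89, 9.88 and 9.79 in the 6 h controls. Every 24 h control lay below every 6 h control, as for RPL22L1, and these were the 2 genes that were lower without overlap. RPL11 differed by 0.18 (SE 0.08) and RPS25, a protein used by some viral internal ribosome entry sites, by 0.19 (SE 0.08).

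The median change of the 58 genes between the controls was 0.08, against −0.016 over all genes, with 43 changes positive. It was 0.01 without control 24 h replicate 3, the array on which 54 of 58 genes stood above their mean, and 0.13 without control 24 h replicate 1. Centring on the array median moved the median of all genes to −0.15 and that of the 58 genes to −0.05, so the sign of the shift depends on the scaling. The median of the 58 genes less that of all genes was 0.098 as deposited, 0.061 after quantile normalization and 0.131 after cyclic loess. The signal of the 5′ probe set of 18S ribosomal RNA was also higher at 24 h, with 11.6 ± 0.19 in the 24 h controls and 9.73 ± 0.48 in the 6 h controls (SD, n = 3 each). Its part in these changes was not tested.

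**Figure D3:**
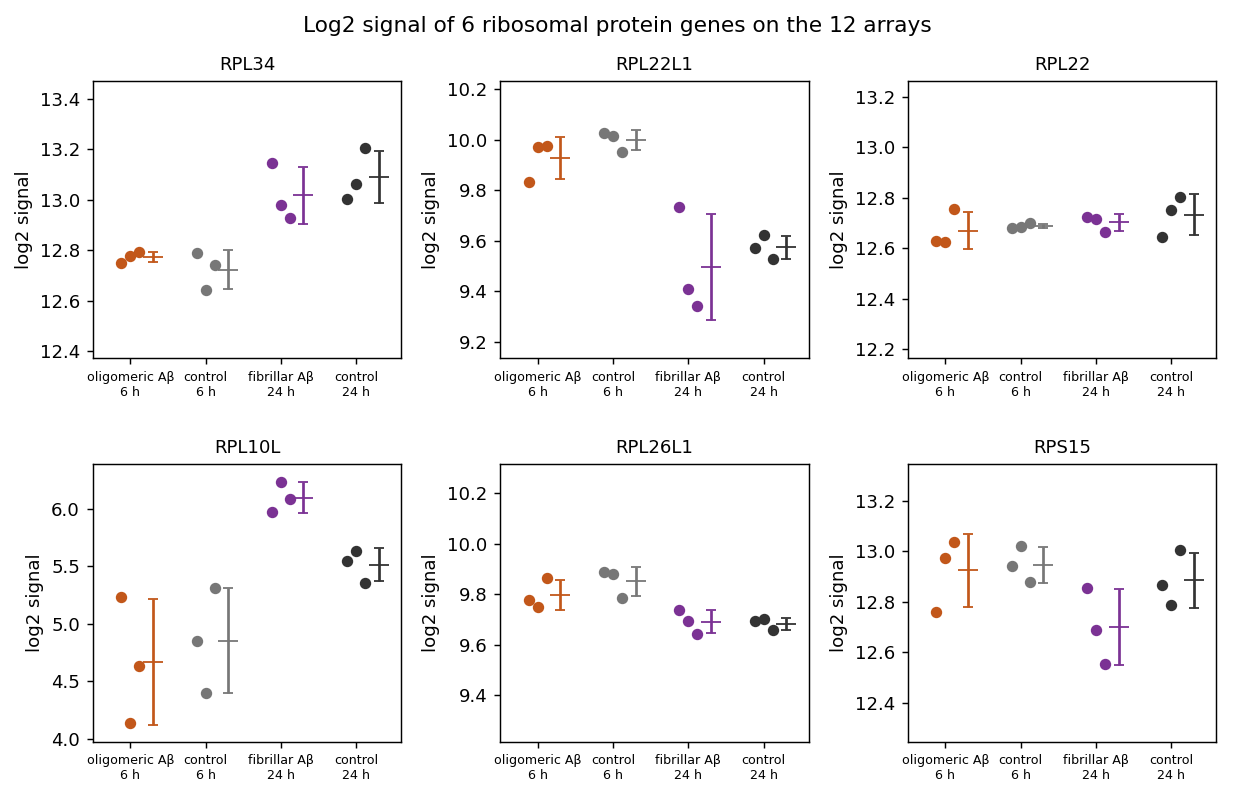
Log2 signal of 6 ribosomal protein genes on every array, by group, with points for arrays and a bar for the mean ± SD of 3. RPL34 lies higher and RPL22L1 lower on the 24 h arrays than on the 6 h arrays whether treated or not, RPL22 overlaps in all groups, and the axes of the panels differ in their level.

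The genes with the brightest probe sets varied with the 3 arrays that stood high. RPS23, a protein of the decoding centre, read 13.83, 13.79 and 14.23 with oligomers, against 13.91, 13.84 and 13.93 in the 6 h controls. It read 14.11, 13.82 and 13.80 with fibrils, against 13.77, 13.84 and 14.07 in the 24 h controls. Oligomeric replicate 3, fibrillar replicate 1 and control 24 h replicate 3 were the highest of their groups, and the groups overlapped in both comparisons. RPS16 had its highest value in each of these groups on the same 3 arrays, with 14.08, 14.04 and 14.07. So had RPL37A, with 14.24, 14.08 and 14.08, but it also read 14.13 on control 6 h replicate 2. The changes of RPS23 were 0.05 (SE 0.11) with oligomers and 0.02 (SE 0.11) with fibrils, and those of RPS16 0.05 (SE 0.09) and 0.0062 (SE 0.09).

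By subunit, the median change with oligomers was 0.03 for both the 21 small and the 37 large subunit genes. With fibrils it was −0.01 for the small and −0.00092 for the large subunit. Between the controls it was 0.06 for the small and 0.08 for the large subunit, and both called genes belong to the large subunit. The spread among genes of a subunit was narrow in the small subunit, where changes with oligomers ran from −0.10 to 0.06 and with fibrils from −0.19 to 0.08.

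Some "like" paralogues stand in for a parent protein in certain tissues or states. The 6 tested ones were set beside the other genes by their share of positive changes. With oligomers 1 of 6 changes was positive, against 43 of the other 52 genes, with medians of −0.05 and 0.03. With fibrils 2 of 6 were positive, against 25 of 52, and for the difference of the responses 4 of 6, against 13 of 52. Between the controls 2 of 6 were positive, against 41 of 52, with medians of −0.08 and 0.08. Of the 6, 1 was called, and it was lower, where 11.7% of all genes were called, 7.92% lower. RPS27L, a p53 target and paralogue of RPS27, differed by −0.01 (SE 0.08) with fibrils and by 0.05 (SE 0.08) between the controls. RPL39L, the paralogue of RPL39, differed by −0.03 (SE 0.11) with fibrils and by −0.13 (SE 0.11) between the controls. RPL10L was higher in the 24 h than in the 6 h controls by 0.66, the highest change of the 6, and did not pass. The change of a paralogue less that of its parent between the controls was −0.47 for RPL22L1, −0.25 for RPL39L, −0.13 for RPL7L1 and −0.09 for RPS27L. With fibrils these differences were −0.05, −0.09, −0.09 and −0.0083 in the same order, and with oligomers −0.05, −0.06, −0.01 and −0.10. These counts carry no test, and the paralogues were set apart by name. All 6 had means below 12, and the 48 bright genes are all among the others, so signal level and paralogue status cannot be told apart. The counts are those of the values as deposited. With oligomers 44 of all 58 changes were positive there, against 25 after quantile normalization and 8 with median centring.

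Other probe sets of the same genes did not all move alike. Above the filter 107 probe sets carried only the symbol of a tested gene, and 60 listed a ribosomal protein symbol beside others. Fitted over all probe sets, the single-symbol ones gave 0 calls with oligomers, 1 with fibrils and 12 between the controls, 7 of these higher and 5 lower at 24 h (limma, adjusted over 27307 probe sets). Of all probe sets 0% were called with oligomers, 0.575% with fibrils, 0.282% higher and 0.293% lower, and 8.52% between the controls, 3.9% higher and 4.63% lower. The call with fibrils was a dim probe set of RPL35A with a mean of 6.02. It read 5.94, 5.58 and 5.25 with fibrils, against 6.68, 6.65 and 6.63 in the 24 h controls. The groups did not overlap, and the change was −1.06 (adjusted p = 0.0131). The brightest probe set of RPL35A, at 12.5, changed by −0.02, with overlap. A further bright probe set of RPL35A read 12.16, 12.07 and 12.06 with fibrils, against 12.27, 12.24 and 12.44 in the 24 h controls. Its groups did not overlap, and its change of −0.22 did not pass (adjusted p = 0.259).

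Probe sets of 1 gene also parted with time. A dim probe set of RPS27L read 5.61, 6.17 and 6.65 in the 24 h controls, against 7.58, 7.78 and 7.67 in the 6 h controls, a change of −1.53 (adjusted p = 0.00025, limma). The brightest probe set of RPS27L changed by 0.05. A dim probe set of RPL37A read 6.61, 6.77 and 6.76 at 24 h, against 7.64, 7.55 and 8.22 at 6 h in the controls, a change of −1.10 (adjusted p = 0.0014), while the brightest, at 14.0, changed by −0.08 with overlap. With fibrils the range of changes among probe sets of 1 gene was largest for RPL35A (1.18), RPL7 (0.77) and RPS27L (0.65), and with oligomers for RPS29 (0.80), RPL14 (0.57) and RPS28 (0.52). What the dim probe sets bind besides the named message was not tested.

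**Figure D4:**
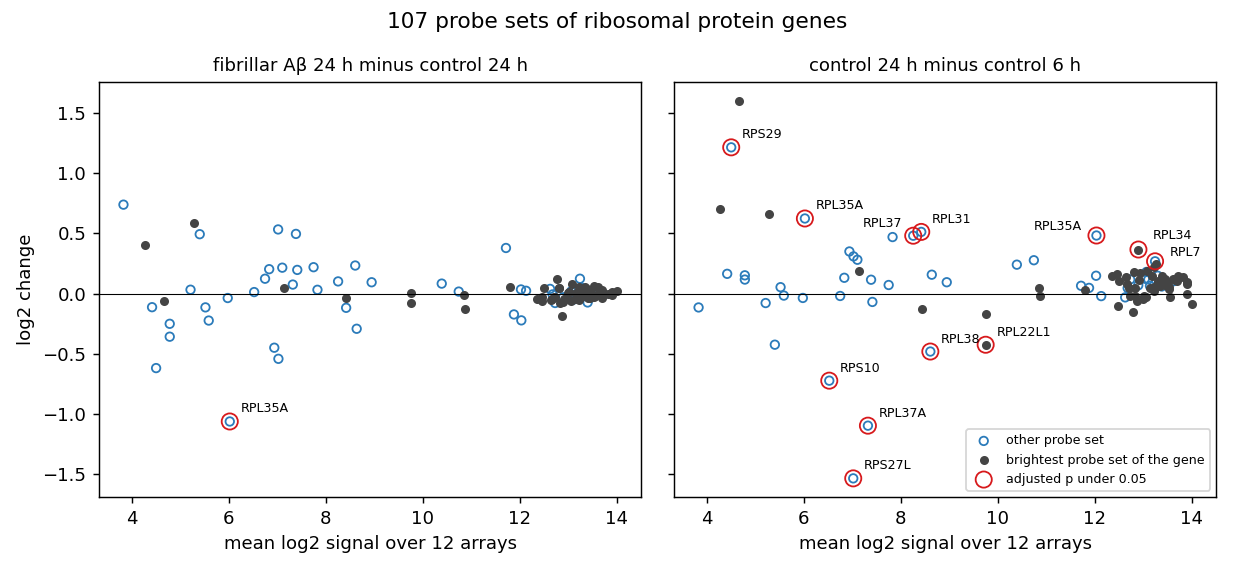
Log2 change of the 107 single-symbol probe sets of the tested genes against their mean log2 signal over the 12 arrays, with fibrils (left) and between the controls (right). Filled points are the brightest probe set of each gene, open points the others, and red rings mark an adjusted p under 0.05 over all probe sets, which 1 probe set has with fibrils and 12 have between the controls, 10 of them open points.

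Genes that serve the ribosome were taken from lists, and their counts stand against the shares called over all genes tested, with fibrils 0.798% higher and 0.391% lower and between the controls 3.76% higher and 7.92% lower. With oligomers 0 genes of any list passed. Of translation factors and other genes with TOP messages 23 of 28 were tested, and with fibrils 1 was lower and 0 were higher. This was EIF5A, which helps ribosomes past proline stretches, with 8.94 ± 0.17 with fibrils and 9.55 ± 0.07 in the controls (SD, n = 3 each), a change of −0.61 (adjusted p = 0.0124, limma). Between the controls 3 were higher, among them the initiation factor subunits EIF3K (0.30, adjusted p = 0.00435) and EIF3F (0.32, adjusted p = 0.0196), and 1 was lower, the scaffold EIF4G1 (−0.48, adjusted p = 0.0192).

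Of 15 regulators of ribosomal protein supply 14 were tested. With fibrils MYC, a transcription factor that drives ribosome production, was lower, with 7.81 ± 0.06 with fibrils and 8.35 ± 0.21 in the 24 h controls (SD, n = 3 each), a change of −0.54 (adjusted p = 0.0318, limma). The difference of its responses to fibrils and oligomers was −0.58 (adjusted p = 0.227). Between the controls MYCN, its relative in neuroblastoma, was higher at 24 h by 0.99 (adjusted p = 0.0122), and the translation repressors EIF4EBP1 and EIF4EBP2 were lower, with changes of −0.63 (adjusted p = 0.000553) and −0.37 (adjusted p = 0.00458). The RNA-binding protein LARP1 differed by 0.05 (SE 0.06) with fibrils and by −0.06 (SE 0.06) between the controls.

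Of 49 genes of ribosome biogenesis 42 were tested, and 0 passed with fibrils, where the median change was −0.07. Between the controls 1 was higher, SDAD1 (0.27, adjusted p = 0.0368), and 5 were lower, among them the small subunit processing factor UTP4 (−0.40, adjusted p = 0.00265) and the helicase DDX21 (−0.30, adjusted p = 0.00799). Of the 15 genes of RNA polymerase I, which makes the ribosomal RNA, 1 was higher at 24 h, the subunit POLR1D (0.32, adjusted p = 0.0256). Of 13 host genes of small nucleolar RNAs 4 were tested, and EPB41L4A-AS1 was higher at 24 h (0.52, adjusted p = 0.0153). FAU and RPL36AL, ribosomal proteins outside the symbol rule, passed in no comparison.

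The 75 mitochondrial ribosomal proteins, which build the separate ribosome of that organelle, were all tested. With oligomers and with fibrils 0 passed, with median changes of −0.05 and −0.06, against 0.03 and −0.0061 for the cytosolic genes. Between the controls 5 of 75 were lower and 0 higher, where 7.92% and 3.76% of all genes were, among them MRPS18C (−0.34, adjusted p = 0.00733) and MRPS6 (−0.33, adjusted p = 0.0108). Their median between the controls was −0.03, against 0.08 for the cytosolic genes and −0.016 over all genes. The difference between both sets was not tested.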

How the data were processed

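Per the labels, total RNA of SH-SY5Y cells was labelled with biotin and hybridised to Affymetrix arrays, 12 in 4 groups of 3. The deposited values are log2 signals of 54675 probe sets, for which the submitters' processing notes name MAS5 without a version. On the linear scale the mean of the signals from the 2nd to the 98th percentile was equal on all arrays, so they were used without further normalization. Platform annotation, which can be old, gave 1 symbol to 41091 probe sets, several to 1801 and none to 11721. The means of the 4 groups were estimated together over 12 arrays in R 4.3.3 with limma 3.58.1 (eBayes with trend), and Benjamini-Hochberg adjusted p-values under 0.05 over 11774 genes were called. The procedure was tested on simulated data. The members and all lists were chosen with earlier results of these data known. Genes were named by rank of p within each comparison (3 in each direction, or all called), by highest, lowest and most variable signal, as paralogue pairs, stalk genes, RPS6, RPL5 and RPL11, and by disagreement between probe sets. Of each other list up to 2 called genes in each direction were named, and LARP1 and RPS25 were named after their values were seen. Alternatives covered normalization, filter, probe set choice, prior variance, array weights, samples in the fit, the replicate number as a block, log2 of the signal plus 16, and each array left out in turn. Use of probe sets with several symbols was added after the data were seen.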

Additional observations from a re-analysis of the deposited data

Results flagged for a closer look

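Groups of 3 arrays are too small for the search for single outlying samples, and none of the 58 genes' responses to fibrils and oligomers differed by the test of the difference. The following values come from probe sets that were not read as the gene's level, and each passed an adjusted p of 0.05 over all probe sets (limma). With fibrils against the 24 h controls the dim probe set of RPL35A changed by −1.06.

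All others compare the 24 h with the 6 h controls. Probe sets with higher values were those of RPL31 (0.51), RPL35A (0.62 for the dim one and 0.48 for one with 12.32 ± 0.11 at 24 h and 11.84 ± 0.08 at 6 h), RPL37 (0.48), RPL7 (0.27) and RPS29 (1.21, a dim one with 5.06 ± 0.43 at 24 h and 3.84 ± 0.42 at 6 h; SD, n = 3 each). Probe sets with lower values were those of RPL37A (−1.10), RPL38 (−0.48), RPS10 (−0.72) and RPS27L (−1.53). Among probe sets annotated with several symbols, those with RPL5 and SNORD21 were higher by 0.29 and 0.41 and the one with SNORD83B, SNORD139 and RPL3 by 0.37. No explanation of these values was tested.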

How the results depend on the processing

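The counts of 0 called genes with oligomers, with fibrils and for the difference of the responses held under all alternatives run, and with each array left out. Between the controls RPL34 and RPL22L1 gave a count of 2. It was 5 after quantile normalization, 5 after cyclic loess, 7 with single-symbol probe sets averaged per gene and 5 with probe sets lacking the array maker's cross-hybridization marks, and 2 to 3 with 1 array left out. As deposited, 11.7% of all genes were called between the controls. Counts under the alternatives stand here without such a share and are not read as a result about these genes. Centring each array on its median gave RPL22L1 and RPL26L1, both lower, with a median of −0.049 between the controls and 0.11 for the difference of the responses. With 1 array left out the median ran from −0.05 to 0.07 with oligomers, −0.05 to 0.06 with fibrils, −0.09 to 0.04 for the difference and 0.01 to 0.13 between the controls. The mean deviation of the 58 genes was 0.0072 on oligomeric replicate 3 and 0.0559 on control 24 h replicate 3 after quantile normalization. With median centring it was 0.0592 on control 6 h replicate 1, −0.0815 on fibrillar replicate 2 and −0.0966 on control 24 h replicate 2. The cause of these shifts was not tested. Deviations of same-numbered arrays correlated by −0.023 to 0.089 for oligomers and their controls, against −0.12 to 0.091 for other numbers. For fibrils and their controls the values were 0.029 to 0.075 against −0.060 to 0.0024. Between the controls they were 0.044 to 0.078 against −0.050 to −0.0053. For fibrils and between the controls, same-numbered arrays thus correlated more, if weakly. Deviations from a group mean cancel within the group, so positive values for same numbers go with lower ones for other numbers. The ranges are therefore not independent. Whether same-numbered arrays shared a batch was not tested. The main fit did not take the numbers as pairs. The replicate block changed no call, with 2 genes called between the controls. Including probe sets with several symbols gave 73 tested symbols, of which 0, 0, 0 and 3 were called. With 3 arrays a group, a change of a dim gene has a wide interval, and signals near the top of the scale may understate changes, which was not tested.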
